A study of Mus musculus with 4 samples.

Results

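L6 IT neurons are the intratelencephalic excitatory neurons of cortical layer 6: they use glutamate and send their axons to other parts of the cortex and telencephalon, not to the thalamus. They were studied here in single-nucleus RNA sequencing of cortex in 2 libraries of pregnant and 2 of non-pregnant female C57BL/6JRj mice. The nuclei were chosen by their own UMI counts, where a UMI is a tag that marks 1 captured RNA molecule. Of the barcodes with at least 500 detected genes and at most 5% mitochondrial UMIs, those with at least 3 UMIs of Slc17a7, the vesicular glutamate transporter of cortical excitatory neurons, and at most 1 UMI of Gad1 and Gad2, the enzymes that make GABA, counted as excitatory. Members had to carry at least 4 UMIs in the sum of the L6 IT markers Sulf1, Bmpr1b, Bmp3 and Rspo2. They also had no UMI of Otof (layer 2/3) or Syt6 (layer 6 corticothalamic, CT, neurons), and no more than 4 UMIs of Foxp2 (CT neurons) or of Tshz2 (near-projecting neurons). This gave 902 nuclei of 26350 kept nuclei, 14031 of which were excitatory.

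The tested animals were pregnant at embryonic stage E13.5 and their controls were not pregnant, all about 12 weeks old and wild type, per the labels. Each library was made from microdissected cortex and is labelled as a replicate female, and the cortical area and any pooling of animals are not given in the sources used here. Actinomycin D, which blocks transcription, was present during nuclei isolation in both groups, per the labels' protocols. Because each group has 2 libraries, the p-values below rest on the spread between 2 samples per group.

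Layer 6 IT neurons sit beside CT neurons, which feed back to the thalamus, and above L6b neurons, a thin deep layer left from the embryonic subplate. Sulf1 removes sulfates from heparan sulfate outside the cell, Bmpr1b is a receptor and Bmp3 a ligand of the BMP pathway, and Rspo2 is a secreted protein that strengthens Wnt signals. These 4 genes are known as markers of deep IT neurons in the mouse, and their levels below describe the choice of nuclei and are not results.

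The L6 IT nuclei numbered 237 and 177 in pregnant replicates 1 and 2, and 224 and 264 in non-pregnant replicates 1 and 2. Their summed counts held 5668108 and 3878625 UMIs in the pregnant libraries, and 4342204 and 6513814 in the non-pregnant libraries. The median L6 IT nucleus had 20803 and 19002 UMIs in the pregnant libraries, against 16568 and 21707.5 in the non-pregnant libraries, so depth overlapped between the groups. Levels are given in CPM, the UMIs of a gene scaled to the same total of UMIs summed over the L6 IT nuclei of each library, and a summed level cannot tell fewer nuclei with a transcript from less transcript per nucleus. Between any pair of libraries, 20 to 31 cell barcodes were shared, and no barcode of an L6 IT nucleus was. The lowest marker sum that was let in, 4 UMIs, was held by 50 and 42 nuclei of the pregnant libraries and by 61 and 53 of the non-pregnant libraries. Just outside, with a sum of 3 and all other limits met, were 79 and 62 nuclei of the pregnant libraries and 114 and 109 of the non-pregnant libraries. The limit on Tshz2 took out 33 and 30 nuclei of the pregnant libraries that met every other limit, against 3 and 6 of the non-pregnant libraries.

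The 4 selected marker genes summed to 394 and 380 CPM in the pregnant and 374 and 353 CPM in the non-pregnant libraries, against 34.0 to 42.8 CPM in other excitatory nuclei of the same libraries. Markers that the choice did not use were read as a check of the name. Osr1, a zinc-finger transcription factor, had 7.41 and 3.61 CPM in L6 IT nuclei of the pregnant libraries and 2.99 and 5.53 CPM in those of the non-pregnant libraries, while other excitatory nuclei had 0.140 to 0.324 CPM. Oprk1, the kappa opioid receptor, had 8.29 and 6.70 CPM in the pregnant and 5.53 and 7.83 CPM in the non-pregnant libraries, against 0.636 to 1.09 CPM in other excitatory nuclei. Penk, the enkephalin precursor and the third marker of this kind, overlapped between L6 IT and other excitatory nuclei, with 1.54 to 3.35 CPM and 1.21 to 3.5 CPM. Markers of neighbouring types outside the selection went both ways. Of 5 layer 2/3 IT markers, Cux2, Calb1, Rasgrf2 and Rfx3 were lower in every L6 IT sum than in every sum of other excitatory nuclei, and Ccdc80, a secreted protein, was higher (9.9 to 13.1 CPM against 2.21 to 3.91 CPM). Of 5 layer 4/5 IT markers, Rorb and Rspo1 were lower and Scnn1a and Whrn overlapped. The fifth, Il1rapl2, an interleukin-1 receptor accessory protein, was higher, with 813 to 1142 CPM in L6 IT and 393 to 608 CPM in other excitatory nuclei. Of 4 CT markers, Tle4 was lower, Rprm and Crym overlapped, and Ntsr1, a neurotensin receptor that defines CT neurons, was higher (7.06 to 10.7 CPM against 2.77 to 4.35 CPM).

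**Figure D1:**
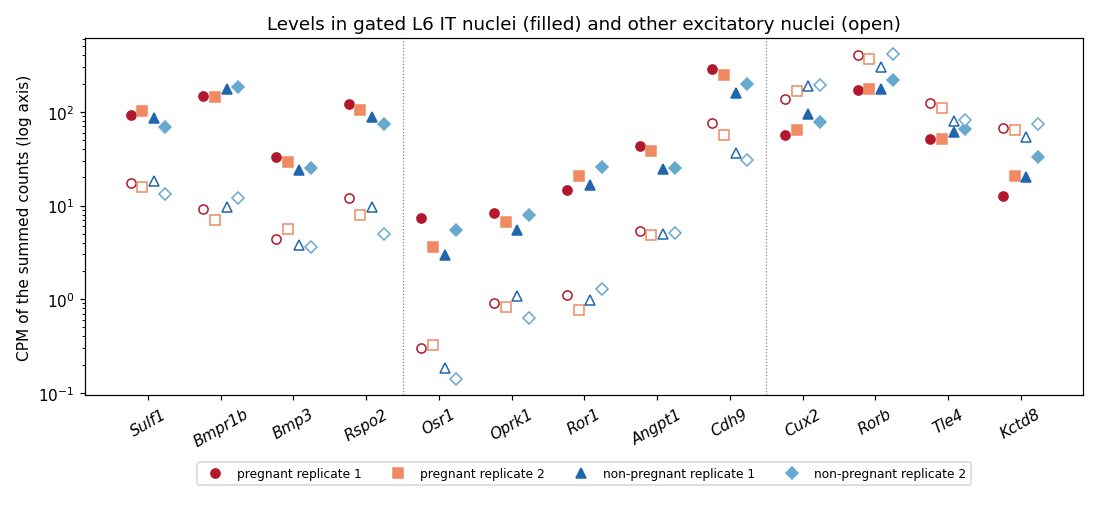
CPM (log axis) of the selected marker genes, of genes the choice did not use that were higher in L6 IT nuclei, and of genes that were lower, separated by dotted lines. Filled symbols are L6 IT nuclei and open symbols other excitatory nuclei of the same 4 libraries; Osr1 stands at 2.99 to 7.41 CPM in the filled and at 0.140 to 0.324 CPM in the open symbols.

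Genes that followed the members without being used to choose them were ranked, after their values were seen, by the smallest ratio of L6 IT to other excitatory CPM over the 4 libraries, among genes with at least 10 CPM in every L6 IT sum. Ror1, a receptor for Wnt5a, led with ratios of 13.4 to 27.3. Angpt1, a secreted ligand of the Tie2 receptor of vessels, followed with ratios of 4.91 to 8.17, and Dnah14, a dynein heavy chain, with 4.65 to 6.73. Cdh9, a classical cadherin, had ratios of 3.75 to 6.36, and Slc26a4, the anion exchanger pendrin, 3.48 to 6.42. At the other end, Kctd8, an auxiliary subunit of GABA-B receptors, was lowest relative to other excitatory nuclei, with ratios of 0.189 to 0.444, and Meis2, a homeobox transcription factor, had 0.275 to 0.486. These ratios describe the selected nuclei, which were chosen on the same counts.

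Only 1 of the 4 markers was seen in 251 nuclei (27.8%), which were 62 and 47 nuclei of the pregnant libraries and 65 and 77 of the non-pregnant libraries. In these, Osr1 had 1.29 and 0 CPM in the pregnant and 0 and 0.95 CPM in the non-pregnant libraries, and Ror1 had 2.58 to 3.80 CPM over all 4. In the other 651 nuclei, with 2 to 4 of the markers, Osr1 had 9.72 and 5.11 CPM in the pregnant and 4.49 and 7.71 CPM in the non-pregnant libraries, and Ror1 had 19.4 to 36.1 CPM. Rorb ran the other way, with 236 and 356 CPM in the pregnant and 407 and 548 CPM in the non-pregnant libraries among nuclei with 1 marker, and with 145 and 102 CPM in the pregnant and 59.7 and 62.8 CPM in the non-pregnant libraries among nuclei with 2 or more. Osr1 thus went with the name L6 IT in the nuclei with 2 or more markers, and the data went against it for the nuclei with 1. Ror1 was picked out from the counts of these same nuclei, so its levels describe them and are no check of the name. Nuclei with Bmpr1b as the sole marker numbered 18 and 18 in the pregnant libraries and 35 and 57 in the non-pregnant libraries. The counts of genes called between pregnant and non-pregnant libraries, and of genes that passed the tests against other neurons, are for this reason also given for the 651 nuclei alone, a restriction chosen after the data were seen.

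RNA of other cell types was present in part of the members. At least 5 UMIs of glial or vascular markers were found in 13 and 22 L6 IT nuclei of the pregnant libraries and in 7 and 16 of the non-pregnant libraries. Slc1a3, a glutamate transporter of astrocytes, stood apart in pregnant replicate 2, with 9.0 and 47.7 CPM in the pregnant against 17.3 and 11.7 CPM in the non-pregnant libraries. All 6 oligodendrocyte markers of the list had a higher mean in pregnant libraries, the summed level was 168 and 215 CPM against 122 and 101 CPM, and none was at 0. In other excitatory nuclei the same list summed to 167 and 156 CPM in pregnant and 143 and 99.8 CPM in non-pregnant libraries. At least 5 UMIs of L6b markers were found in 3 and 2 L6 IT nuclei of the pregnant libraries and in 5 and 10 of the non-pregnant libraries. The L6b list of 6 genes summed to 15.2 and 20.4 CPM in the pregnant and 26.0 and 35.6 CPM in the non-pregnant libraries, with Nxph4, one of its defining genes, at 0 in non-pregnant replicate 1.

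L6 IT nuclei made up 7.43% (Wilson 95% interval 6.57 to 8.40) and 5.59% (4.84 to 6.45) of excitatory nuclei in the pregnant libraries, and 5.86% (5.16 to 6.65) and 6.84% (6.09 to 7.69) in the non-pregnant libraries. The means were 6.51% ± 1.30 in pregnant and 6.35% ± 0.694 in non-pregnant libraries (SD, n = 2 each), a log2 ratio of 0.04 that was smaller than the spread between replicates. An exact two-sided permutation test gave p = 1, and with 2 libraries a group it cannot go below 0.333. Of all kept nuclei the shares were 3.62% and 2.65% in the pregnant and 3.27% and 4.22% in the non-pregnant libraries, a log2 ratio of -0.26 (exact permutation p = 0.667). After every nucleus was thinned to 10000 UMIs and shallower nuclei were left out (1852 and 2164 kept nuclei of the pregnant and 1925 and 1324 of the non-pregnant libraries), the shares of excitatory nuclei were 4.63% and 3.71% in the pregnant and 3.5% and 4.15% in the non-pregnant libraries. The shares of the groups overlapped in each of these comparisons. After the same thinning, the shares of all kept nuclei did not overlap. They were at most 1.70% in the pregnant and at least 1.81% in the non-pregnant libraries, a log2 ratio of -0.27. The exact permutation p was 0.333, the smallest that it can give. The limit on Tshz2, which the members must meet, was exceeded by 25.2% and 23.4% of excitatory nuclei in the pregnant libraries and by 3.51% and 2.64% in the non-pregnant libraries. Of the excitatory nuclei within that limit, a denominator chosen after the data were seen, L6 IT nuclei were 9.94% (8.80 to 11.2) and 7.30% (6.33 to 8.40) in the pregnant and 6.08% (5.35 to 6.89) and 7.03% (6.26 to 7.89) in the non-pregnant libraries. There the groups did not overlap (log2 ratio 0.40), and the exact two-sided permutation p was 0.333, the smallest it can give. With the limit dropped for members too, the shares of all excitatory nuclei were 8.47% and 6.54% in the pregnant and 5.94% and 7.0% in the non-pregnant libraries, which overlapped (log2 ratio 0.21, exact permutation p = 0.667). The direction of the share thus depended on the denominator, and 2 libraries a group cannot give a p below 0.05. Intervals cover counting error only.

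**Figure D2:**
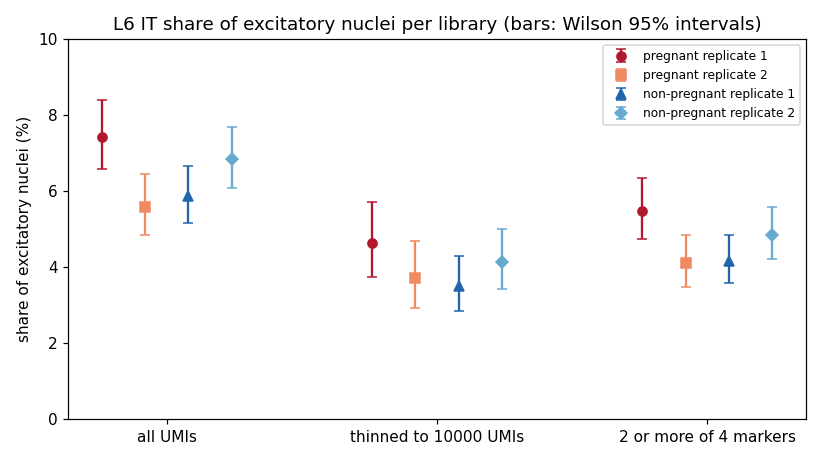
Share of L6 IT nuclei among excitatory nuclei (%) in each of the 4 libraries, with Wilson 95% intervals, from all UMIs, after thinning to 10000 UMIs and for nuclei with 2 or more of the 4 markers. From all UMIs the pregnant libraries stand at 7.43% and 5.59% and the non-pregnant ones at 5.86% and 6.84%, so the groups overlap.

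The pregnant and non-pregnant sums were compared gene by gene, to ask which transcripts of these neurons differ at mid-gestation. Of 13173 genes tested, 115 (0.873%) had an adjusted p below 0.05 by edgeR (quasi-likelihood F test, p-values adjusted by Benjamini-Hochberg over all genes tested): 79 rose (0.600%) and 36 fell (0.273%) in the pregnant libraries. Their log2 fold changes of pregnant over non-pregnant had a median of 0.89 among the genes that rose (0.48 to 4.79) and of -0.68 among those that fell (-2.58 to -0.48). The median over all genes tested was 0.00. For all 115 the CPM values of the groups did not overlap, which was also true of 37.0% of all genes tested. In the 651 nuclei with 2 or more markers 53 genes were called, 45 of them among the 115, with 45 that rose and 8 that fell. Leaving out pregnant replicate 1 left 48 calls and pregnant replicate 2 left 73, while leaving out non-pregnant replicate 1 gave 328 and non-pregnant replicate 2 gave 228. With 1 library in a group, the lone library is taken to vary like the other group.

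The genes that rose with the smallest p included a membrane protein, a cadherin and a transcription factor. Parm1, a mucin-like membrane protein first known as androgen-regulated in prostate, had 42.9 and 40.7 CPM in pregnant and 7.14 and 7.98 CPM in non-pregnant L6 IT nuclei. Its log2 fold change was 2.45 (SE 0.18, adjusted p = 3.78e-07 by edgeR), and in the nuclei with 2 or more markers it was 2.07 (adjusted p = 5.72e-05 by edgeR). Luzp2, named for its leucine zipper, had 192 and 225 CPM in pregnant and 73.9 and 89.8 CPM in non-pregnant nuclei. It rose by 1.33 on the log2 scale (SE 0.12, adjusted p = 2.83e-06 by edgeR), and both pregnant values were above both non-pregnant ones. Etv1, an ETS-family transcription factor, had 102 and 83.0 CPM in pregnant against 33.6 and 40.7 CPM in non-pregnant nuclei (log2 1.31, SE 0.15, adjusted p = 0.000455 by edgeR). Cdh20, a classical cadherin, had 93.0 and 91.8 CPM in pregnant against 49.1 and 44.8 CPM in non-pregnant nuclei (log2 0.98, SE 0.12, adjusted p = 0.000261 by edgeR). These 4 genes passed with each library left out in turn and in the nuclei with 2 or more markers. Without the 5% of nuclei with most UMIs, Luzp2 (log2 1.21, adjusted p = 0.301 by edgeR) and Etv1 (1.19, adjusted p = 0.232 by edgeR) were not called, and with a marker sum of 6 or more Luzp2 was not (1.33, adjusted p = 0.790 by edgeR). After thinning to 10000 UMIs none of the 4 was called, with log2 1.81 for Parm1, 0.37 for Luzp2, 0.40 for Etv1 and 0.21 for Cdh20. Cdh20 had a log2 fold change of 0.62 without the nuclei that carried glial or vascular markers, and passed there too.

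Receptors for serotonin, noradrenaline and neuregulins were among the 12 leading genes. Htr4, a serotonin receptor that raises cyclic AMP, had 22.6 and 15.7 CPM in pregnant and 3.92 and 2.61 CPM in non-pregnant L6 IT nuclei (log2 2.61, SE 0.29, adjusted p = 0.000209 by edgeR). In the nuclei with 2 or more markers its log2 fold change was 2.21, which missed the threshold (adjusted p = 0.0993 by edgeR). Htr4 was also not called without the 5% of nuclei with most UMIs (3.46, adjusted p = 0.702 by edgeR). Adra1a, an alpha-1 adrenergic receptor for noradrenaline, had 69.0 and 60.3 CPM in pregnant and 31.6 and 32.7 CPM in non-pregnant nuclei (log2 1.01, SE 0.14, adjusted p = 0.000698 by edgeR), and its call was lost without pregnant replicate 1 (log2 0.84). Both pregnant values were above both non-pregnant ones. Adra1a was not called with a marker sum of 6 or more (log2 0.69, adjusted p = 0.0783 by edgeR). After thinning to 10000 UMIs it was not called either (0.71, adjusted p = 0.234 by edgeR). Erbb4, a receptor for neuregulins that is also abundant in inhibitory neurons, had 24.2 and 23.2 CPM in pregnant and 11.1 and 8.14 CPM in non-pregnant nuclei (log2 1.33, SE 0.20, adjusted p = 0.00222 by edgeR). It did not pass without the nuclei that carried glial or vascular markers (log2 0.48, adjusted p = 0.761 by edgeR), with the limit on Tshz2 dropped (log2 0.51, adjusted p = 0.887 by edgeR), or without pregnant replicate 1 (log2 1.23). The 4 inhibitory markers outside the selection summed to 50.1 and 43.1 CPM in pregnant and 27.4 and 30.1 CPM in non-pregnant L6 IT nuclei, most of it Erbb4 and Adarb2, while the defining marker Slc32a1 had 1.59 and 2.32 CPM against 2.76 and 1.38 CPM.

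The other leading genes that rose differed in kind. Norad, a long noncoding RNA that binds Pumilio proteins, had 38.6 and 34.8 CPM in pregnant and 17 and 14 CPM in non-pregnant nuclei (log2 1.28, SE 0.17, adjusted p = 0.000698 by edgeR). Hunk, a protein kinase, had 42.9 and 39.2 CPM in pregnant against 18.4 and 20.3 CPM in non-pregnant nuclei (log2 1.08, SE 0.16, adjusted p = 0.00138 by edgeR). L3mbtl4, a protein of the MBT family of chromatin readers, had 31.8 and 33.3 CPM in pregnant against 12.9 and 6.75 CPM in non-pregnant nuclei (log2 1.77, SE 0.23, adjusted p = 0.00183 by edgeR). All 3 kept their calls in the nuclei with 2 or more markers and lost them without pregnant replicate 1 (log2 1.14, 0.95 and 1.74), and L3mbtl4 also lost its call without pregnant replicate 2 (1.78). L3mbtl4 was not called without the 5% of nuclei with most UMIs (1.60, adjusted p = 0.695 by edgeR). Stac, an adaptor protein with an SH3 domain, was near the floor in non-pregnant nuclei, with 44 and 36 UMIs in pregnant and 3 and 0 UMIs in non-pregnant L6 IT nuclei. Its pooled CPM ratio was 30.3 with an exact 95% counting interval of 10.0 to 150.1, and it passed in edgeR (adjusted p = 0.000729). Hbb-bs, a beta-globin of red blood cells, had 6.35 and 8.77 CPM in pregnant against 1.15 and 0.768 CPM in non-pregnant nuclei (log2 2.97, SE 0.45, adjusted p = 0.00183 by edgeR). The 4 red blood cell markers summed to 12.9 and 16.0 CPM in pregnant and 2.76 and 1.07 CPM in non-pregnant L6 IT nuclei, and to 15.2 and 13.3 CPM against 2.19 and 1.46 CPM in other excitatory nuclei, with Hba-a2 at 0 in L6 IT nuclei of non-pregnant replicate 2. The part of blood or free RNA in these values was not tested.

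The genes that fell included matrix, chromatin and receptor genes. Abi3bp, an extracellular matrix protein, had 12.5 and 15.7 CPM in pregnant and 36.8 and 35.6 CPM in non-pregnant L6 IT nuclei (log2 -1.38, SE 0.17, adjusted p = 0.000286 by edgeR). Cdyl2, a chromodomain protein, had 72.0 and 70.9 CPM in pregnant against 135 and 111 CPM in non-pregnant nuclei (log2 -0.78, SE 0.12, adjusted p = 0.00183 by edgeR). Both passed with each library left out in turn and in the nuclei with 2 or more markers. With a marker sum of 6 or more Abi3bp was not called (log2 -0.90, adjusted p = 0.115 by edgeR). Cdyl2 was not called after thinning to 10000 UMIs (-0.81, adjusted p = 0.0704 by edgeR). Rxfp2, a receptor for the relaxin-family hormone Insl3, had 3.18 and 4.64 CPM in pregnant and 14.3 and 10.4 CPM in non-pregnant nuclei (log2 -1.68, SE 0.29, adjusted p = 0.00619 by edgeR). It had -2.04 in the nuclei with 2 or more markers (adjusted p = 0.0199 by edgeR), and its call was lost without pregnant replicate 1 (-1.45). Rnf165, a ubiquitin ligase known in the mouse to support BMP-dependent axon growth of motor neurons, had 81.3 and 81.0 CPM in pregnant against 138 and 120 CPM in non-pregnant nuclei (log2 -0.67, SE 0.11, adjusted p = 0.00449 by edgeR). Cacng2, an auxiliary subunit of AMPA receptors, had 75.9 and 83.0 CPM in pregnant against 126 and 117 CPM in non-pregnant nuclei (log2 -0.63, SE 0.11, adjusted p = 0.00611 by edgeR). Rnf165 and Cacng2 kept their calls in the nuclei with 2 or more markers and lost them without pregnant replicate 1 (-0.74 and -0.62), and Rnf165 also without pregnant replicate 2 (-0.62). With a marker sum of 6 or more Rnf165 (-0.55, adjusted p = 0.0800) and Cacng2 (-0.51, adjusted p = 0.0821) were not called by edgeR. Neither was called after thinning to 10000 UMIs (-0.50 and -0.45).

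Another 6 of the leading genes that fell were not called in the nuclei with 2 or more markers. Kcnh5, a voltage-gated potassium channel, had 125 and 130 CPM in pregnant and 186 and 185 CPM in all non-pregnant L6 IT nuclei (log2 -0.55, SE 0.10, adjusted p = 0.0110 by edgeR). In nuclei with 1 marker it had 221 and 255 CPM in pregnant against 396 and 419 CPM in non-pregnant libraries, and in nuclei with 2 or more markers 88.7 and 78.8 CPM against 80.4 and 73.0 CPM. There its log2 fold change was 0.13 (adjusted p = 0.898 by edgeR), so the lower level in pregnant libraries was seen in the nuclei with 1 marker, and the direction was the opposite in the others. With the limit on Tshz2 dropped it had -0.30, which missed the threshold (adjusted p = 0.212 by edgeR). Col26a1, a collagen, had log2 -1.04 over all L6 IT nuclei (SE 0.18, adjusted p = 0.00597 by edgeR) and -0.27 in the nuclei with 2 or more markers (adjusted p = 0.889 by edgeR). Cpne4, a calcium-dependent phospholipid-binding protein, had -0.69 (SE 0.11, adjusted p = 0.00389) and -0.38 (adjusted p = 0.889) in the same edgeR fits. Siae, a sialic acid acetylesterase, Cpne9, a second copine, and Cux1, a homeobox protein of upper layers, had log2 fold changes of -0.74, -0.64 and -0.61 over all L6 IT nuclei and of -0.53, -0.36 and -0.34 in those with 2 or more markers. Without pregnant replicate 1 the calls of Kcnh5 (-0.57), Col26a1 (-1.04), Siae (-0.75), Cpne9 (-0.66) and Cux1 (-0.50) were lost, and without pregnant replicate 2 those of Cpne4 (-0.61), Kcnh5 (-0.53), Col26a1 (-1.03), Siae (-0.73) and Cpne9 (-0.62).

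**Figure D3:**
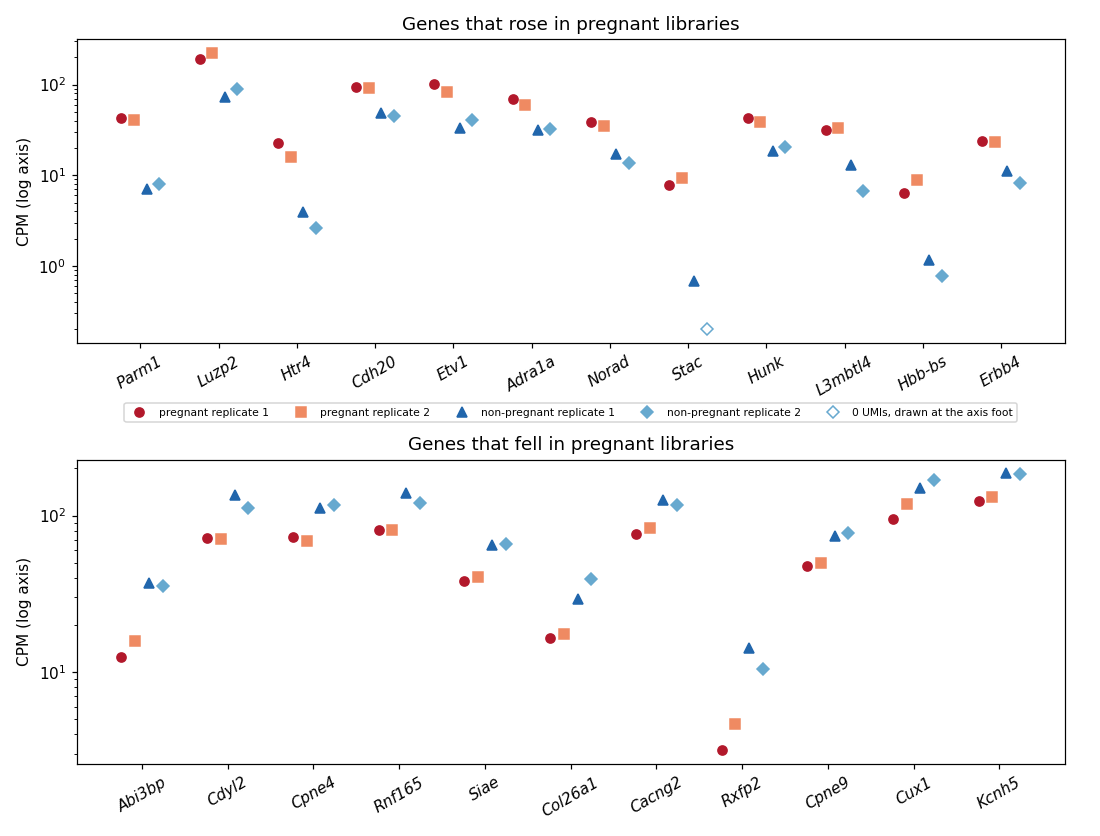
CPM (log axis) of 12 leading genes that rose and 11 that fell, ordered by p, in L6 IT nuclei of each library, pregnant left of non-pregnant; the open symbol marks 0 UMIs. Parm1 stands at 42.9 and 40.7 CPM in pregnant and at 7.14 and 7.98 CPM in non-pregnant libraries. In every gene shown the groups are apart, which the rule for naming these genes required.

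Oligodendrocyte genes were among the genes that rose. St18, a transcription factor of oligodendrocytes, had 19.9 and 28.1 CPM in pregnant and 0.921 and 4.15 CPM in non-pregnant L6 IT nuclei (log2 3.06, SE 0.43, adjusted p = 0.0269 by edgeR). Mog, a protein of the myelin sheath, had 4.23 and 9.54 CPM in pregnant and 0.921 and 0.921 CPM in non-pregnant nuclei (log2 2.81, SE 0.51, adjusted p = 0.00869 by edgeR). Aspa, Gjc3, Bcas1 and Fa2h, which are also known from oligodendrocytes and were picked out after their values were seen, had log2 fold changes of 2.53 to 4.17. Without the 58 nuclei that carried glial or vascular markers, these 6 genes were too low to be tested. Without these nuclei, 150 genes were called, 97 of them among the 115. Parm1 (log2 2.40), Luzp2 (1.40), Htr4 (2.50) and Etv1 (1.34) kept their calls there. Moxd1, a marker of L6b neurons, was the called gene of the opposite kind, with 1.76 and 1.55 CPM in pregnant and 6.91 and 6.29 CPM in non-pregnant nuclei (log2 -1.96, SE 0.40, adjusted p = 0.0200 by edgeR). It had 10 and 6 UMIs in pregnant and 30 and 41 in non-pregnant libraries. Of these, 10 and 6 and 30 and 40 lay in the few nuclei with at least 5 UMIs of L6b markers, a set chosen in part by Moxd1.

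The summed level of Inpp4b, a phosphatase of the phosphoinositide pathway, came in large part from few nuclei. Over all L6 IT nuclei it had 102 and 83.0 CPM in pregnant and 85.0 and 113 CPM in non-pregnant libraries, so the groups overlapped (log2 -0.10, SE 0.17, adjusted p = 0.953 by edgeR). The nuclei with at least 5 UMIs of L6b markers, 3 and 2 in the pregnant and 5 and 10 in the non-pregnant libraries, held 25.5% and 31.7% of its UMIs in pregnant and 78.3% and 76.0% in non-pregnant libraries. Without them it had 77.2 and 57.7 CPM in pregnant against 18.9 and 28.4 CPM in non-pregnant libraries (log2 1.49, SE 0.24), which turned the direction and just missed the threshold (adjusted p = 0.0580 by edgeR). Tle4 behaved in the same way in level, at 459 to 660 CPM in the nuclei with L6b markers and 40.4 to 44.0 CPM in the rest. The leading genes named above all kept their calls without these nuclei.

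**Figure D4:**
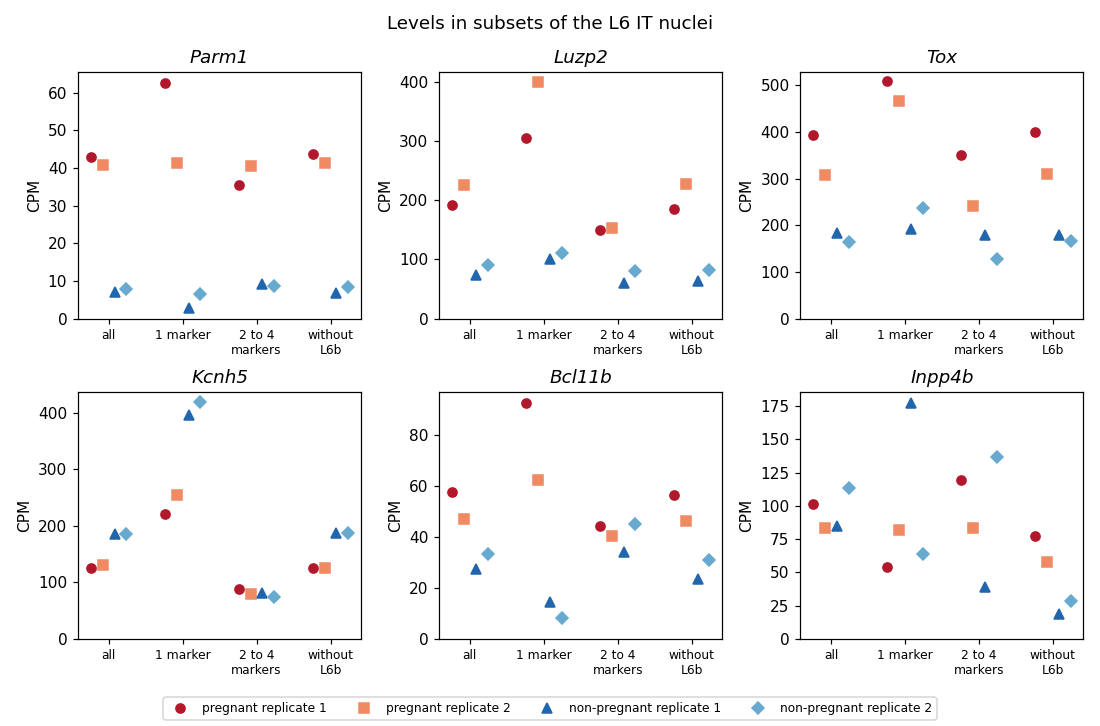
CPM of 6 genes in all L6 IT nuclei of each library, in those with 1 marker, in those with 2 to 4 markers and in those left without nuclei carrying L6b markers. Parm1, Luzp2 and Tox are higher in pregnant libraries in every subset, Kcnh5 and Bcl11b differ mainly in nuclei with 1 marker, and Inpp4b separates the groups only without the L6b-marker nuclei.

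Among 38 tested transcription factors of cortical layers and areas, 4 rose and 1 fell, with a median log2 fold change of 0.08. Over all genes tested, 0.600% rose and 0.273% fell. Tox, an HMG-box protein, had 394 and 307 CPM in pregnant and 184 and 163 CPM in non-pregnant nuclei (log2 1.02, SE 0.14, adjusted p = 0.00449 by edgeR) and passed with each library left out. In the nuclei with 2 or more markers its fold was similar (log2 0.96) but did not pass (adjusted p = 0.601 by edgeR). Zfpm2, a cofactor of GATA proteins, had 146 and 130 CPM in pregnant against 91.0 and 82.9 CPM in non-pregnant nuclei (log2 0.67, SE 0.12, adjusted p = 0.00611 by edgeR). Bcl11b, known for its part in projection neurons that leave the cortex, had 57.7 and 46.9 CPM in pregnant and 27.6 and 33.2 CPM in non-pregnant nuclei (log2 0.78, SE 0.16, adjusted p = 0.0200 by edgeR). In nuclei with 1 marker Bcl11b had 92.8 and 62.4 CPM in pregnant against 14.5 and 8.07 CPM in non-pregnant libraries, and in those with 2 or more 44.4 and 40.5 CPM against 34.2 and 45.1 CPM, where the groups overlapped (log2 0.08, adjusted p = 0.975 by edgeR). Zfpm2 and Bcl11b lost their calls without pregnant replicate 1 (log2 0.52 and 0.55). Zfpm2 was also not called in the nuclei with 2 or more markers (0.66, adjusted p = 0.309 by edgeR) or without those carrying L6b markers (1.07, adjusted p = 0.536 by edgeR). Parm1 and Bcl11b also stand in the list of extratelencephalic (L5 ET) markers, which summed to 114 and 104 CPM in pregnant and 45.6 and 51.1 CPM in non-pregnant L6 IT nuclei, with Chrna6, a defining marker, at 0 in all 4. Most of this sum was Parm1 and Bcl11b themselves. The list was also higher in pregnant libraries in other excitatory nuclei, with 124 and 95.4 CPM against 63.7 and 57.4 CPM. Of its other members, Bcl6 and Pou3f1 were not called.

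Adhesion, matrix and guidance genes were called in both directions. The counts below stand beside 0.600% of all genes tested that rose and 0.273% that fell. Of 20 cadherins 2 rose, Cdh20 and Cdh13. Cdh13, a cadherin anchored to the membrane by a lipid, had 330 and 307 CPM in pregnant and 190 and 226 CPM in non-pregnant nuclei (log2 0.61, SE 0.12, adjusted p = 0.0131 by edgeR). Of 27 extracellular matrix genes 3 rose: Reln, the secreted reelin (log2 1.13), Egfem1 (0.80) and Spon1, an F-spondin (0.70). Of 25 axon guidance receptors Epha6, an ephrin receptor, rose (0.54), while Robo3, a receptor that tunes Slit responses (-0.63), and Plxnd1, a semaphorin receptor (-0.92), fell. None of 22 guidance ligands was called, and Slit2, a ligand of Robo receptors, had 187 and 222 CPM in pregnant and 246 and 290 CPM in non-pregnant nuclei (log2 -0.41, SE 0.11, adjusted p = 0.114 by edgeR). Of 45 synaptic adhesion genes Flrt2 rose (0.65) and Sdk1 fell (-0.50). Of 21 heparan sulfate enzymes and glypicans Gpc4 (1.36) and Ndst3 (0.82) rose. Of these list genes, Cdh13 lost its call without non-pregnant replicate 1, Egfem1, Flrt2, Sdk1, Robo3 and Plxnd1 without non-pregnant replicate 2, Epha6 without either, and all of them except Cdh20 without pregnant replicate 1; Egfem1, Spon1, Robo3 and Plxnd1 also lost theirs without pregnant replicate 2. Without pregnant replicate 1 the log2 fold changes ran from 0.47 (Epha6) to 1.16 (Gpc4) among those that rose, and were -0.42 for Sdk1, -0.59 for Robo3 and -1.06 for Plxnd1. All adjusted p-values here were below 0.05 in edgeR's test for the genes called. In the nuclei with 2 or more markers, Cdh20 (log2 1.13), Egfem1 (1.14), Spon1 (1.07), Epha6 (0.61) and Flrt2 (0.89) were called. Cdh13 (0.48), Reln (0.72), Gpc4 (1.05), Ndst3 (0.42), Robo3 (-0.47), Plxnd1 (-0.42) and Sdk1 (-0.13) were not called there.

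Genes of excitability and transmission were called in few cases, which are given below by list. Over all genes tested, 0.600% rose and 0.273% fell. Of 42 potassium channel genes Kcnn2, a small-conductance calcium-activated channel, rose (log2 0.64), and Kcnh5 and Kcnip3, a channel-interacting calcium sensor (-0.51), fell. Of 30 sodium, calcium and HCN channel genes Ryr3, a calcium release channel, rose (0.55). Of 33 presynaptic genes Unc13c, a vesicle priming factor, had 18.7 and 33.3 CPM in pregnant and 8.29 and 4.91 CPM in non-pregnant nuclei (log2 1.98, SE 0.31, adjusted p = 0.0173 by edgeR). It passed with each library left out, and in the nuclei with 2 or more markers (1.83, adjusted p = 0.00699 by edgeR), but not with the limit on Tshz2 dropped (2.18, adjusted p = 0.487 by edgeR). Syn3, a synapsin, had 253 and 281 CPM in pregnant against 193 and 183 CPM in non-pregnant nuclei (log2 0.50, SE 0.10, adjusted p = 0.0230 by edgeR) and lost its call whichever of the 4 libraries was left out (0.46 to 0.53). Of 33 cyclic nucleotide enzymes and kinases Pde1c, a calmodulin-dependent phosphodiesterase, rose (1.24). Of 19 monoamine and acetylcholine receptors Htr4 and Adra1a rose. None of 25 genes of ionotropic glutamate receptors and their scaffolds and none of 21 GABA and metabotropic glutamate receptor genes was called, with medians of -0.06 and 0.11. Without pregnant replicate 1, Kcnn2 (log2 0.41), Kcnip3 (-0.55), Ryr3 (0.38) and Pde1c (1.26) were not called. Kcnip3 (-0.48) and Pde1c (1.21) were also lost without pregnant replicate 2, Ryr3 (0.49) without non-pregnant replicate 1 and Pde1c (0.94) without non-pregnant replicate 2. In the nuclei with 2 or more markers Kcnip3 (-0.58) and Syn3 (0.52) were called beside Unc13c, and Kcnn2 (0.44), Ryr3 (0.33) and Pde1c (1.14) were not.

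Of the BMP and Wnt lists, to which marker genes of the selection belong, no gene was called. This was so for 20 BMP and activin genes (8 positive, median log2 -0.06) and for 17 Wnt and R-spondin genes (7 positive, median -0.01), while Gpc4 and Ndst3 of the heparan sulfate list rose. With 0.873% of all genes tested called, lists of this size can hold no call without differing from the rest. Wls, which carries Wnt proteins out of the cell, is outside the Wnt list and was picked out after its values were seen. It had 51.0 and 48.5 CPM in pregnant and 22.1 and 32.5 CPM in non-pregnant nuclei (log2 0.84, SE 0.17, adjusted p = 0.0260 by edgeR). Rspo3, a relative of Rspo2, came nearest, with 79.7 and 81.5 CPM in pregnant and 61.0 and 55.9 CPM in non-pregnant nuclei (log2 0.46, SE 0.12, adjusted p = 0.0698 by edgeR). Of 28 genes of the phosphoinositide 3-kinase pathway Deptor, an inhibitor of mTOR, fell, with 30.7 and 36.6 CPM in pregnant and 53.4 and 52.8 CPM in non-pregnant nuclei (log2 -0.67, SE 0.13, adjusted p = 0.0163 by edgeR), a call that was lost without pregnant replicate 1 (-0.60), without pregnant replicate 2 (-0.75) and in the nuclei with 2 or more markers (-0.73, adjusted p = 0.0571 by edgeR). Shc3, a neuronal adaptor of receptor kinases, had 87.0 and 84.8 CPM in pregnant and 127 and 107 CPM in non-pregnant nuclei (log2 -0.45, SE 0.12, adjusted p = 0.0855 by edgeR).

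Among 26 hormone and growth factor receptors Erbb4 rose and Rxfp2 fell, while 0.600% of all genes tested rose and 0.273% fell. Esr1, estrogen receptor alpha, was low, with 7.59 and 7.48 CPM in pregnant and 3.68 and 3.38 CPM in non-pregnant nuclei, and did not pass (log2 1.09, SE 0.32, adjusted p = 0.154 by edgeR). Prlr, the prolactin receptor, had 1.23 and 5.41 CPM in pregnant against 2.53 and 2.46 CPM in non-pregnant nuclei, so the groups overlapped. Pgr, the progesterone receptor, had 63.0 and 60.3 CPM in pregnant against 56.7 and 67.5 CPM in non-pregnant nuclei (log2 -0.02, SE 0.13, adjusted p = 0.989 by edgeR). The corticosteroid receptors Nr3c1 and Nr3c2 had log2 fold changes of 0.12 (SE 0.11) and 0.32 (SE 0.11), with adjusted p of 0.848 and 0.302 by edgeR. Oxtr, the oxytocin receptor, had 0 and 1 UMIs in pregnant and 0 and 1 UMIs in non-pregnant L6 IT nuclei and was too low to test.

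None of 29 activity-induced genes was called, where 0.873% of all genes tested were. Of the 29 genes, 28 (96.6%) had a positive log2 fold change, against 50.8% of all genes tested, and the median was 0.47. All 29 had their lowest CPM in non-pregnant replicate 2, which was the lowest library for 26.2% of all genes tested. Fos, an immediate early transcription factor, had 16.2 and 17.8 CPM in pregnant and 20.3 and 0.461 CPM in non-pregnant L6 IT nuclei (log2 0.88, SE 1.63, adjusted p = 0.967 by edgeR). Egr1 had 37.9 and 37.9 CPM in pregnant against 42.1 and 3.53 CPM in non-pregnant nuclei, and Junb had 41.1 and 44.1 CPM against 41.2 and 3.53 CPM. In these 3 genes non-pregnant replicate 1 was as high as the pregnant libraries and non-pregnant replicate 2 was low. None of 16 heat shock and stress genes (median 0.22) and none of 17 clock genes (-0.09) or 16 neuropeptide and opioid genes (0.19) was called. Of 10 noncoding RNA and Pumilio genes only Norad passed.

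Whether a gene's difference was larger or smaller than in other neurons was tested by fitting both sums of each library together, with a term per library and an interaction term. Against the other excitatory nuclei, 53 of 17710 genes (0.299%) passed, 16 of them among the 115. With the 651 nuclei of 2 or more markers in place of all L6 IT nuclei, 51 genes passed, 24 of them among the 53. Both sets of nuclei come from the same 4 libraries. The other excitatory nuclei were those within the same limit on Tshz2, which left out 804 and 741 excitatory nuclei of the pregnant libraries and 134 and 102 of the non-pregnant libraries; the part of this in the differences was not tested. Htr4 had a log2 fold change of 2.61 in L6 IT nuclei and 0.91 (SE 0.18) in other excitatory nuclei, where it had 16.7 and 14.3 CPM in pregnant and 9.47 and 6.86 CPM in non-pregnant libraries. The difference was 1.66 (SE 0.26, adjusted p = 0.00097 by edgeR). Syn3 had 143 and 176 CPM in pregnant and 167 and 173 CPM in non-pregnant other excitatory nuclei, where the groups overlapped, and the difference in effect was 0.62 (SE 0.08, adjusted p = 2.89e-05 by edgeR). Stac (difference 3.0, adjusted p = 0.0412) and Erbb4 (0.92, adjusted p = 0.0128) also had larger positive effects in L6 IT nuclei by edgeR. In the negative direction, Cpne4 had -0.69 in L6 IT and 0.00 in other excitatory nuclei (difference -0.71, SE 0.11, adjusted p = 0.00253 by edgeR), and Deptor had -0.67 and 0.07 (difference -0.76, SE 0.14, adjusted p = 0.00839 by edgeR). Col26a1 (difference -0.70, adjusted p = 0.0182) and Kcnh5 (-0.42, adjusted p = 0.0131) differed the same way by edgeR, with the limits from nuclei with 1 marker given above. With the nuclei of 2 or more markers, Erbb4 (1.09), Syn3 (0.64) and Deptor (-0.82) passed. Htr4 (1.25, adjusted p = 0.276), Stac (2.46, adjusted p = 0.485), Cpne4 (-0.42, adjusted p = 0.999), Col26a1 (0.08, adjusted p = 1) and Kcnh5 (0.26, adjusted p = 0.685) did not pass there by edgeR, and the last 2 turned positive. Without the nuclei that carried glial or vascular markers Erbb4 had a difference of 0.09 (adjusted p = 0.996 by edgeR), and its level in L6 IT nuclei overlapped between the groups, with 14.1 and 6.43 CPM in pregnant against 9.10 and 6.75 CPM in non-pregnant libraries. The difference was lost without pregnant replicate 1 for Erbb4 (0.73), Deptor (-0.48) and Kcnh5 (-0.35), without pregnant replicate 2 for Col26a1 (-0.52), without non-pregnant replicate 1 for Kcnh5 (-0.32), and without non-pregnant replicate 2 for Stac (1.77) and Col26a1 (-0.68).

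Other genes called in L6 IT nuclei did not pass the test against other excitatory nuclei, which does not show that the effects were equal. Of the 115 genes, 110 had the same direction in other excitatory nuclei, and the same count over all genes is not given here. Of the 115, 21 were also called there, where 49 of 18578 genes were called. In L6 CT nuclei 23 of the 104 tested were called, where 99 of 12245 genes were. Parm1 had 47.0 and 35.7 CPM in pregnant and 11.3 and 11.6 CPM in non-pregnant other excitatory nuclei, and the difference in effect was 0.61 (SE 0.18, adjusted p = 0.319 by edgeR). Norad (difference -0.07, SE 0.15), Tox (0.04, SE 0.07), Etv1 (0.12, SE 0.13) and Hbb-bs (0.02, SE 0.50) had differences smaller than their errors, with adjusted p from 0.999 to 1 by edgeR. Cdh20 came close, with a difference of 0.51 (SE 0.11, adjusted p = 0.0550 by edgeR). Angpt1, one of the genes highest in L6 IT relative to other neurons, rose in L6 IT nuclei to 43.6 and 38.7 CPM in pregnant, against 24.4 and 25.2 CPM in non-pregnant libraries (log2 0.73, SE 0.15, adjusted p = 0.0226 by edgeR), and had log2 0.00 in other excitatory nuclei. Its difference of 0.73 did not pass (SE 0.18, adjusted p = 0.0996 by edgeR).

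**Figure D5:**
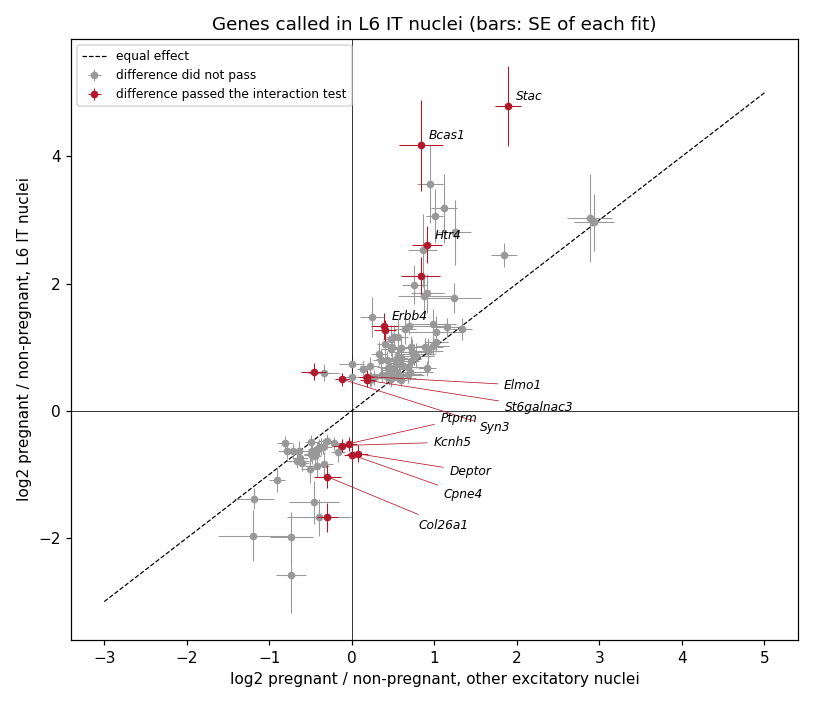
Pregnancy effect (log2 of pregnant over non-pregnant, bars SE) in other excitatory nuclei (horizontal) and L6 IT nuclei (vertical), for the 115 genes called in L6 IT nuclei. Genes whose difference passed the interaction test are in red, those with a gene name labelled; Htr4 stands at 2.61 and 0.91, and the dashed line marks equal effects.

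Against L6 CT nuclei, the neighbours in the same layer (excitatory nuclei with more than 4 UMIs of Foxp2 and at least 1 of Syt6, within the same limit on Tshz2, 882 in all), 12 of 13308 genes (0.0902%) passed the interaction, 1 of them among the 115, and with the 651 nuclei of 2 or more markers 2 genes passed. The gene among the 115 was Bcl11b, with 148 and 153 CPM in pregnant and 172 and 187 CPM in non-pregnant L6 CT nuclei. Its effect was 0.78 in L6 IT and -0.23 in L6 CT nuclei, a difference of 1.00 (SE 0.15, adjusted p = 0.00284 by edgeR), and the level in L6 IT nuclei separated the groups in the nuclei with 1 marker and not in the others, as described above. It did not pass with the nuclei of 2 or more markers (0.31, adjusted p = 0.905 by edgeR) or without pregnant replicate 1 (0.78, adjusted p = 0.120 by edgeR). Adamtsl1, a secreted ADAMTS-like protein, and Tle4 passed the test against both sets of nuclei and were not called in L6 IT nuclei; they are named after their values were seen. Adamtsl1 had 13.9 and 14.7 CPM in pregnant and 18.7 and 22.1 CPM in non-pregnant L6 IT nuclei, against 72.4 and 95.6 CPM and 35.2 and 40.5 CPM in L6 CT nuclei. The difference in effect was -1.67 (SE 0.20, adjusted p = 0.000301 by edgeR), and it missed the threshold without pregnant replicate 2 (-1.50, adjusted p = 0.0638 by edgeR). For Tle4 it was -0.61 (SE 0.12, adjusted p = 0.0434 by edgeR), which was lost with the nuclei of 2 or more markers (-0.56, adjusted p = 0.508 by edgeR), without either pregnant library (-0.63 and -0.60) and without non-pregnant replicate 2 (-0.60). In the L6 IT nuclei left without those carrying L6b markers, Tle4 had 43.6 and 43.8 CPM in pregnant and 44.0 and 40.4 CPM in non-pregnant libraries. The groups thus overlapped there, and the lower level in pregnant libraries was not seen. Foxp2 and Syt6, which set the L6 CT nuclei apart, also bounded the L6 IT nuclei, so neither is compared here. Crym, a thyroid hormone-binding protein on the CT marker list, was called in L6 IT nuclei, with 12.0 and 10.8 CPM in pregnant and 3.92 and 2.61 CPM in non-pregnant libraries (log2 1.85, SE 0.30, adjusted p = 0.00423 by edgeR), and is named after its values were seen.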

How the data were processed

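The 4 libraries of nuclei, 2 pregnant and 2 non-pregnant, were read as unnormalized UMI counts per gene and barcode, which the authors deposited as filtered matrices of 33696 features; the counts were made with Cell Ranger 10.0.0 on GRCm39, per the submitters' processing notes. The libraries held 97875766 to 116860425 UMIs in 26816 barcodes, and no column was left unmapped. The labels call the samples replicate females and do not say that they were separate extractions, so p-values measure the spread between these samples.

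The members, gene lists and markers were chosen with earlier results of these data known. Counts of the L6 IT nuclei were summed per library and tested with edgeR 4.0.16 in R 4.3.3 (TMM factors, a minimum count of 10 in filterByExpr, robust quasi-likelihood F test, Benjamini-Hochberg adjustment over all genes tested, threshold 0.05); the SE is the log2 fold change divided by the root of F. The 11 genes that chose the nuclei stayed in the fit but were not counted as called. Interactions were fitted on 8 sums with the library as a block. Named are, in each direction, the 12 called genes of smallest p whose groups did not overlap (predicted genes left out), the called members of the lists, 6 hormone receptors and Inpp4b, Tox, Slit2 and Shc3, which an earlier account named. DESeq2 1.42.0, other factors and filters, thinning, and leaving out each library were alternatives. Another 5 were chosen after the data were seen: 2 or more markers, no limit on Tshz2, the share over excitatory nuclei within that limit, and leaving out nuclei with at least 5 UMIs of 23 glial and vascular or of 5 L6b markers. No doublet caller was run, and leaving out the 5% of nuclei with most UMIs was an alternative. A few results that these rules would name are not reported here. The fits were tested on simulated data. No coordinates are given, since the annotation at hand is of an earlier build. Tables and figures used Python 3.11.15, numpy 2.4.6, pandas 2.3.3, scipy 1.17.1 and matplotlib 3.10.9.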

Additional observations from a re-analysis of the deposited data

Results flagged for a closer look

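The pregnancy effect differed between L6 IT and other excitatory nuclei, by the interaction test, for 8 of the genes that the naming rule gave. On the log2 scale the effect in L6 IT nuclei minus that in other excitatory nuclei was 1.66 for Htr4, 3.0 for Stac, 0.92 for Erbb4 and 0.62 for Syn3, and -0.71 for Cpne4, -0.76 for Deptor, -0.70 for Col26a1 and -0.42 for Kcnh5. Of these, Erbb4, Syn3 and Deptor passed with the nuclei of 2 or more markers. Erbb4 lost its call (adjusted p = 0.996 by edgeR) without the nuclei that carried glial or vascular markers, at a difference of 0.09, and the call of Syn3 within L6 IT nuclei was lost whichever library was left out. Bcas1 (3.28), Adamtsl1 (-1.19) and Tle4 (-0.82), which were picked out after their values were seen, passed the same test; Bcas1 did not without the glial or vascular nuclei (0.17). Against L6 CT nuclei the effect differed for Bcl11b, by 1.00, and, among the genes picked out later, for Adamtsl1 (-1.67) and Tle4 (-0.61). Bcl11b and Tle4 did not pass there with the nuclei of 2 or more markers (0.31 and -0.56). Without the nuclei that carried L6b markers, the level of Tle4 in L6 IT nuclei overlapped between the groups. It was 43.6 and 43.8 CPM in pregnant and 44.0 and 40.4 CPM in non-pregnant libraries.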

How the results depend on the processing

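Against 115 genes called, the count was 55 with DESeq2, 53 with 2 or more markers, 57 with equal nuclei per library, 49 with a marker sum of 6 or more, 183 with no limit on Tshz2, 254 with no filter on low counts, 65 with no robust estimation, 33 after thinning to 10000 UMIs, 45 without the top 5% by UMIs, and 48 to 328 with 1 library left out. Genes that rose were 68.7% of the calls, 84.9% with 2 or more markers, 81.6% with a marker sum of 6 or more, 57.6% after thinning and 58.3% without non-pregnant replicate 2. The replicate block gave 326 calls. The replicate numbers are not said to pair the samples. The deviations of samples with the same number had a correlation of 0.0206 over 13181 genes, which cannot show whether they were paired. For the interaction with other excitatory nuclei (53), the count was 107 with no filter, 130 without nuclei with glial or vascular markers and 80 to 151 with 1 library left out. For that with L6 CT nuclei (12), it was 2 with 2 or more markers, 3 with a marker sum of 6 or more, 64 with no filter, 27 without nuclei with glial or vascular markers, 3 without the top 5% by UMIs and 2 to 100 with 1 library left out. The share of L6 IT nuclei had a log2 ratio of -0.26 with all kept nuclei as denominator and 0.40 with the excitatory nuclei within the Tshz2 limit, against 0.04.

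The direction turned for Kcnh5 with 2 or more markers (0.13), and after thinning for Zfpm2 (-0.13), Bcl11b (-0.45), Kcnn2 (-0.020), Robo3 (0.028) and Ndst3 (-0.21). Inpp4b turned with Foxp2 of 1 or less (0.10), 2 or more markers (0.17), equal nuclei (0.014), without nuclei with L6b markers (1.49), and without non-pregnant replicate 2 (0.13) or pregnant replicate 2 (0.07), in a range of -0.33 to 0.13 with 1 library left out. The causes were not tested. Of 948 values over 48 genes, 721 kept their direction and side of the threshold. With 2 libraries a group, small differences and low genes were not detectable.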
